A study of Mus musculus with 32 samples.

Results

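The genes described here encode the subunits of the proteasome and the factors that assemble or activate it, measured in mouse C2C12 cells. They are all probe sets annotated to a single gene whose symbol begins with Psma, Psmb, Psmc, Psmd, Psme or Psmf, without Psmb8, Psmb9 and Psmb10. The rule found 50 probe sets of 39 genes, out of 12422 probe sets and 8251 genes. It used gene names and no measured value.

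C2C12 is a line of mouse skeletal myoblasts that withdraws from the cell cycle and fuses into myotubes after a switch from growth to differentiation medium. In 1 arm of the study, untreated controls were set beside cells exposed to TSA (trichostatin A), which blocks class I and class II histone deacetylases. Both were sampled at 0 h, while in growth medium, and then at 4, 12, 24 and 48 h in differentiation medium, 2 arrays in each of 10 groups. In the other arm, cells with the pHan vector and cells with pHan carrying Sir2, an NAD-dependent deacetylase of the family that includes mouse Sirt1, were sampled after 12 and 36 h of differentiation, with 3 arrays in each of 4 groups. All groups of the Sir2 arm therefore carry the vector. The dose of TSA, its removal, the species of the Sir2 sequence and the handling of the carrying cells (pool or clone) are not given in the sources used here. No label says that replicate arrays came from separate cultures, so p-values measure the spread between these arrays, which may be technical, and their number limits the precision.

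The proteasome degrades proteins that have been tagged with ubiquitin. Its core is a barrel of alpha and beta rings in which Psmb5, Psmb6 and Psmb7 carry the catalytic sites, and the regulatory cap that binds the barrel has a base, with a ring of ATPases that unfolds the substrate, and a lid that removes the ubiquitin. Activators such as Psme1, Psme3 and Psme4 can take the place of the cap, and in muscle the system is known for the breakdown of contractile proteins during atrophy and for the turnover of regulators during differentiation. The 39 genes comprise 7 of the alpha ring, 7 of the beta ring, 6 ATPases, 3 other base subunits, 8 lid subunits, 3 chaperones of base assembly (Psmd5, Psmd9 and Psmd10) and 3 activators. The remaining 2, Psmc3ip and Psme3ip1, share the letters but are not proteasome subunits.

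Intensities are deposited values on a linear scale. Log2 changes were computed on log2(intensity + 137.7) in the TSA arm and on log2(intensity + 8.82) for Sir2 and vector arrays, are given ± standard error, and come from 1 limma model per arm. A gene is said to have risen or fallen where its Benjamini-Hochberg adjusted p over the 7453 probe sets tested in its arm was under 0.05. Levels are not compared between probe sets or between arms. A gene with several probe sets is counted by its brightest one in that arm. The filter on dim probe sets, at the 40th percentile of the arm's means, passed 43 of the 50 probe sets in each arm, which covered 37 genes of the TSA arm and 36 of the Sir2 arm. Psmc3ip and Psmd2, which encodes a large scaffold subunit of the base, failed it in both arms and Psmc4, an ATPase, in the Sir2 arm. In the TSA arm Psmd2 ran from -90.2 to 308 and Psmc3ip from -209.9 to 148 over the 20 arrays, and in the Sir2 arm the highest of the 12 Psmc4 values was 26.5. Counts below are of the genes tested, not of all 39. Whether the arrays of 2 groups overlapped is given as a description. For genes named because they passed a test, groups that lay apart add no support to the call. The share of all probe sets with groups apart was not computed.

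Array medians of the TSA arm lay between 252.8 and 286.7, those of the Sir2 arm between 50.4 and 57.6. All 11 skeletal muscle markers examined passed the filter in both arms. Of 6 leukocyte markers on the array 2 passed in each arm, and which ones is not reported here. The 6 summed to -923 to 40.5 on TSA and control arrays and to 70.0 to 177 on Sir2 and vector arrays. The first sum includes Cd3e, which was below 0 in every group (-1031 to -514.5), so it does not give the level of the 2 that passed. The defining marker Ptprc read 3.06 to 3.66 in vector cells at 12 h and 2.46 to 8.12 at 36 h. Of the other lists, 3 of 4 bone and cartilage markers passed in the TSA arm (summed level 1052 to 2389.5) and 1 of 4 for Sir2 and vector arrays (34.0 to 162), 1 of 5 endothelial markers (301 to 1604) and 0 of 5 (32.3 to 118), and 0 of 3 adipocyte markers in both arms (68.7 to 519 and 33.7 to 70.0). Their part in the results was not tested. The ratio of the 3′ to the 5′ Gapdh control probe sets, a measure of RNA integrity, was 0.815 ± 0.0438 on TSA arrays and 0.866 ± 0.0415 on control arrays (SD, n = 10 each). It was 0.780 ± 0.0579 on Sir2 and 0.834 ± 0.0442 on vector arrays (SD, n = 6 each), and its part in the treatment results was not tested. Sirt1 read 20.3, 9.48 and 14.2 in vector cells and 37.5, 48.7 and 39.9 in Sir2 cells at 12 h, and 39.4, 19.6 and 36.9 against 80.5, 69.2 and 35.8 at 36 h. The groups were apart at 12 h and overlapped at 36 h. In bulk RNA, fewer cells of a kind and less RNA per cell cannot be told apart.

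Proteasome genes changed in both directions while untreated cells differentiated, as Myog, the myogenic factor of early differentiation, went from -40.8 to 183 at 0 h to 18686 to 21516 at 48 h. Between 0 and 48 h, 11 of 37 genes passed the test, 29.7%, against 35.3% of all probe sets tested. The activators Psme1 and Psme4, the base chaperone Psmd5, the alpha subunit Psma7 and the lid subunits Psmd12 and Psmd6 fell. The ubiquitin receptor Psmd4, the chaperone Psmd9, the ATPase Psmc3, the catalytic subunit Psmb6 and the lid subunit Psmd8 rose. The median change of the 37 genes was -0.09 and that of all probe sets tested was 0.01. With only the 4 arrays compared setting the spread, the calls of Psmd5 and Psme1 stood and the other 9 were lost (adjusted p 0.0585 to 0.169).

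**Figure D1:**
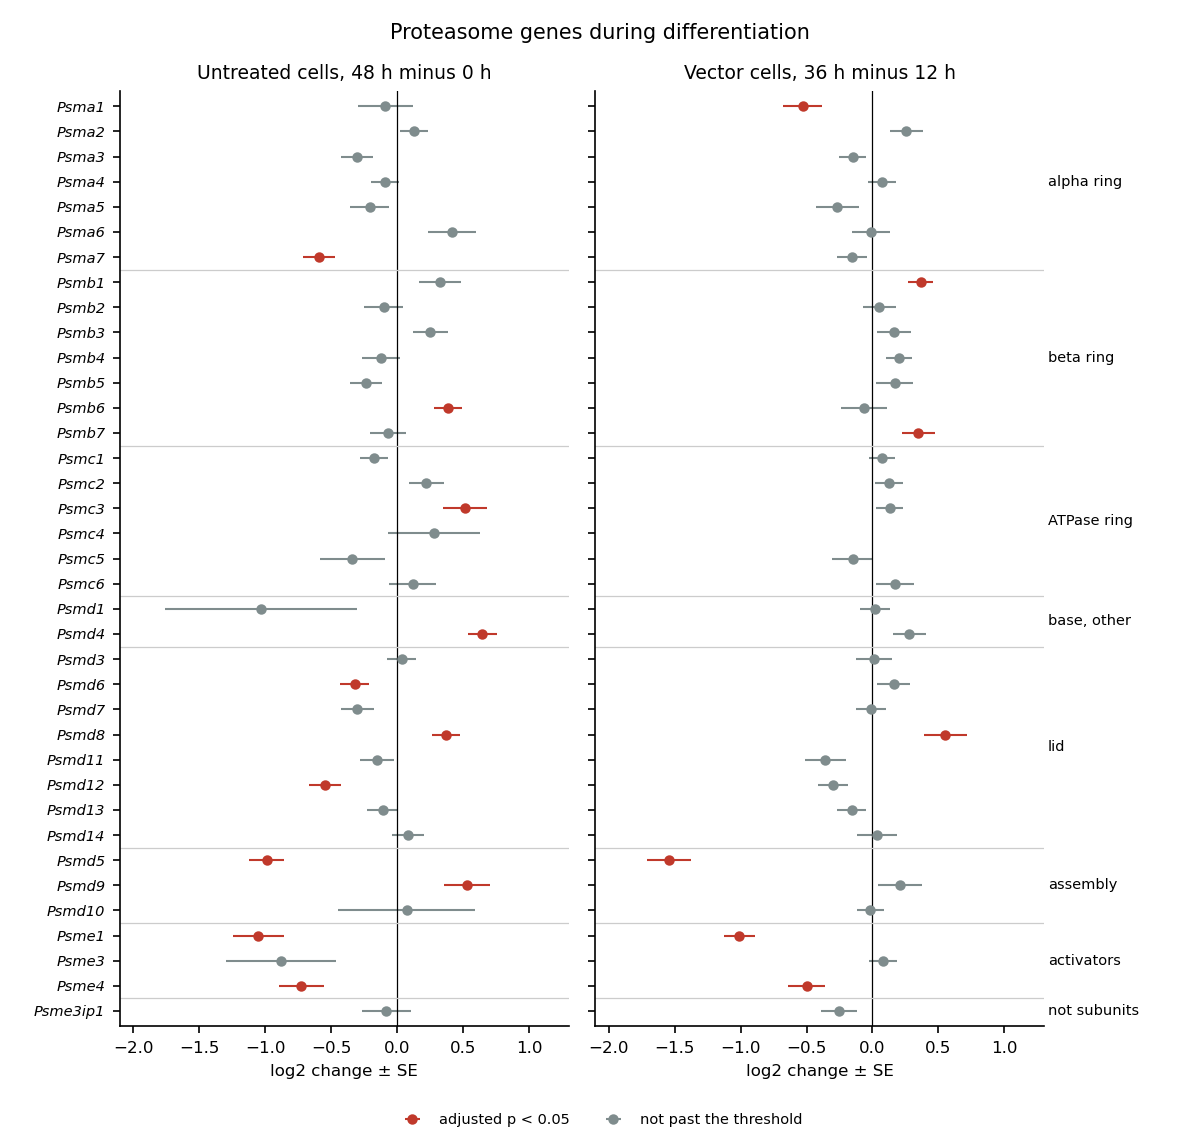
Log2 change ± standard error of each tested gene on the horizontal axis, from 0 to 48 h in untreated cells (left, n = 2 arrays per time) and from 12 to 36 h in vector cells (right, n = 3), with genes ordered by role; red marks an adjusted p under 0.05. Psmd5, Psme1 and Psme4 lie to the left in both panels and Psmd8 to the right in both.

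Psmd5, which holds ATPase subunits during assembly of the base, read 2519 and 2643 at 0 h, 3040.2 and 2955 at 4 h, 2507 and 3116 at 12 h, 2335 and 2272 at 24 h and 1166 and 1303 at 48 h in control cells. The 48 h arrays lay far below all earlier ones. The change from 0 to 48 h was -0.99 ± 0.13, adjusted p = 9.41e-05.

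Psme1, a subunit of the heptameric activator that interferon induces in immune cells, read 1045 and 1234 at 0 h, 727 and 877 at 4 h, 851 and 886 at 12 h, 1426 and 1003 at 24 h and 459 and 494 at 48 h. Its 48 h arrays lay below all 8 earlier ones. The arrays of 4 and 12 h lay below both of 0 h, without a call, and the 24 h group differed from 0 h by 0.07 ± 0.19. The change at 48 h was -1.05 ± 0.19, adjusted p = 0.00102. A second Psme1 probe set did not pass the filter, and with both averaged the change was -0.19 (adjusted p = 0.286).

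Psme4, the large single-chain activator found mainly in nuclei, went down more gradually. It read 1218 and 1726 at 0 h, 1054 and 1266 at 4 h, 1096 and 989 at 12 h, 854 and 923 at 24 h and 798 and 851 at 48 h. It had fallen by 24 h (-0.63 ± 0.17, adjusted p = 0.0297) and at 48 h by 0.73 ± 0.17 (adjusted p = 0.00564). The 48 h call was lost without control 0 h array 2 (adjusted p = 0.0755), the higher of the 0 h arrays, where the change was -0.50.

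The third activator, Psme3, read 407 and 626 at 0 h, 173 and 172 at 24 h and 298 and 145 at 48 h, lower at the later times on all 4 arrays. The spread was wide and the change at 48 h (-0.88 ± 0.42) did not pass, adjusted p = 0.123.

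Of the 3 catalytic core subunits, 1 rose. Psmb6, which cleaves after acidic residues, read 5247 and 5528 at 0 h, 4378 and 4319 at 4 h, 5309 and 5288 at 12 h, 4894 and 5230.2 at 24 h and 7204 and 6925 at 48 h, and its highest values were those of 48 h (0.38 ± 0.11, adjusted p = 0.0135). This call was lost with quantile normalization (adjusted p = 0.0528) and without control 0 h array 1 (adjusted p = 0.0857) or control 48 h array 1 (adjusted p = 0.062). Psmb5, the chymotrypsin-like subunit, read 4283 and 4925 at 0 h, 4321 and 4356 at 4 h, 3770.0 and 3719 at 12 h, 4498 and 4292 at 24 h and 3674 and 4119.8 at 48 h, with no change past the threshold (-0.23 ± 0.12). Psmb7, the trypsin-like subunit, read 7297 and 6828 at 0 h, 5671 and 6887 at 4 h, 5949 and 6470.4 at 12 h, 5927 and 6072 at 24 h and 6644 and 6781 at 48 h, and its groups at 0 and 48 h differed by -0.07 ± 0.14, adjusted p = 0.724. Whether the changes of the 3 genes differ from each other was not tested.

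In the alpha ring, which gates the barrel, Psma7 was the only 1 of 7 genes to pass. It read 7194 and 6690.2 at 0 h, 7021 and 6037 at 4 h, 6518 and 6847 at 12 h, 4725 and 4672 at 24 h and 4152 and 4994 at 48 h. All arrays of 24 and 48 h were below all earlier ones, and the change was -0.55 ± 0.12, adjusted p = 0.0107, at 24 h and -0.59 ± 0.12, adjusted p = 0.00233, at 48 h. At 24 h 4 genes of 37 had fallen and none had risen, against 12.9% called in either direction and 6.74% lower over all probe sets. They were Psme4, Psma7, the ATPase Psmc1 (-0.39 ± 0.11) and the lid subunit Psmd11 (-0.44 ± 0.13). No gene passed at 4 h or at 12 h (limma, 4 with an unadjusted p under 0.05 at each time), where 2.05% and 5.23% of all probe sets were called.

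In the cap, Psmd4, which binds ubiquitin chains, read 5091 and 4534 at 0 h, 4589.6 and 4441 at 4 h, 5221 and 5865 at 12 h, 5327 and 5414 at 24 h and 7153 and 8085 at 48 h. The 48 h arrays were above all others and the change was 0.65 ± 0.11, adjusted p = 0.000633. Psmc3, an ATPase of the base, has 3 probe sets, and all of them rose between 0 and 48 h. The brightest went from 7958 and 7605 to 10156 and 12324 (0.52 ± 0.16, adjusted p = 0.0273), and the others changed by 0.68 ± 0.16 and 0.41 ± 0.11. The call of the brightest was lost with median centring (adjusted p = 0.0514) and without control 0 h array 1 (adjusted p = 0.0799), control 0 h array 2 (adjusted p = 0.118) or control 48 h array 2 (adjusted p = 0.167).

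Psmd9, a chaperone of base assembly, read 1179 and 1105 at 0 h and 1439 and 2029 at 48 h (0.53 ± 0.18, adjusted p = 0.033), and this call was lost without control 0 h array 1 (adjusted p = 0.087), control 0 h array 2 (adjusted p = 0.14) or control 48 h array 2 (adjusted p = 0.257). The lid subunits went both ways. Psmd12 went from 1468 and 1619 to 946 and 1085 (-0.55 ± 0.12, adjusted p = 0.00366) and Psmd6 from 5100.3 and 5127 to 4141 and 3999.6 (-0.32 ± 0.11, adjusted p = 0.0389), while Psmd8 went from 3175 and 2867 to 3869 and 4007 (0.37 ± 0.11, adjusted p = 0.0159). The groups at 0 and 48 h did not overlap for these 3 genes, which were named because they passed. The Psmd6 call was lost without any of the 4 arrays (adjusted p 0.0802 to 0.13), and that of Psmd8 without control 0 h array 2 (adjusted p = 0.121) or control 48 h array 2 (adjusted p = 0.0654). Across the whole control series, 12 of 37 genes (32.4%) changed at some time by an F test, against 40% of all probe sets.

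The vector cells of the other arm, which share no array with the control series, gave a second view of differentiation over a shorter interval. From 12 to 36 h, 7 of 36 genes changed, 19.4%, against 32.1% of all probe sets. Psmd5, Psme1, Psme4 and the alpha subunit Psma1 fell, and Psmd8, Psmb1 and Psmb7 rose. The median change of the 36 genes was 0.03 and that of all probe sets was -0.02.

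Psmd5 read 510.4, 573 and 601 at 12 h and 159, 245 and 167 at 36 h, a change of -1.54 ± 0.17, adjusted p = 2.29e-05, or to 0.344 of its 12 h level on the scale with the added constant. This was the largest change of a proteasome gene in the comparison. Psme1 read 200.1, 158 and 157 at 12 h and 76.0, 76.7 and 88.8 at 36 h (-1.01 ± 0.12, adjusted p = 4.84e-05), which was -0.36 (adjusted p = 0.102) with its probe sets averaged. Psme4 read 306, 367 and 326 at 12 h and 235, 245 and 217 at 36 h (-0.50 ± 0.14, adjusted p = 0.0191). The 12 and 36 h arrays did not overlap for any of the 3 genes, and the Psme4 call was lost without vector 12 h array 2 (adjusted p = 0.0736) or vector 36 h array 3 (adjusted p = 0.0661).

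Psmd8 rose from 411, 342 and 362 to 496, 575 and 575 (0.55 ± 0.16, adjusted p = 0.0217), with groups apart, a call lost without vector 12 h array 2 (adjusted p = 0.076), vector 12 h array 3 (adjusted p = 0.0546), vector 36 h array 2 (adjusted p = 0.0619) or vector 36 h array 3 (adjusted p = 0.0671). Psma1 read 162, 168 and 155 at 12 h and 105, 105 and 120.0 at 36 h (-0.53 ± 0.15, adjusted p = 0.0168), a call lost without vector 12 h array 2 (adjusted p = 0.0526), vector 36 h array 1 (adjusted p = 0.0541) or vector 36 h array 2 (adjusted p = 0.0502). Psmb7 rose from 622, 615 and 510.0 to 698, 744 and 780.1 (0.35 ± 0.12, adjusted p = 0.0487), and leaving out any 1 of the 6 arrays ended that call (adjusted p 0.0581 to 0.162), as did quantile normalization (0.0566), median centring (0.119), no filter (0.0906) and a smaller added constant (0.0503). Psmb1, a non-catalytic beta subunit, rose from 749, 660.1 and 687 to 889, 902 and 913 on its brightest probe set (0.37 ± 0.09, adjusted p = 0.0107), but not on another (0.06 ± 0.14, adjusted p = 0.761) or with its probe sets averaged (0.21, adjusted p = 0.17).

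Of the 36 genes tested in both arms, 1 rose in both (Psmd8), 3 fell in both (Psme1, Psmd5 and Psme4), and none was called in opposite directions. Over all probe sets tested in both arms, 1249 of 6633 (18.8%) were called in both, whatever the direction, a larger share than among these genes. How many of the 1249 were called in opposite directions was not computed. Pearson's r between the 2 changes was 0.63 across these genes and 0.61 across the 6633 probe sets tested in both arms. These are descriptions across genes, which are not independent replicates. Psmb6 rose from 0 to 48 h in control cells but read 913, 668 and 637 at 12 h and 608, 719.6 and 781 at 36 h in vector cells, with overlapping groups (-0.06 ± 0.17).

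Promoters are printed for the 4 genes that moved the same way in both arms and for the catalytic subunits Psmb5 and Psmb6. Other genes with called changes, such as Psma7, Psmd4 and Psmd12, had windows that are not printed. The sequences are the 250 bases before the annotated start, from RefSeq on GRCm38.p6, where 33 of the 39 genes had an entry, in 36 windows. They lie at chr2:34870963-34871212 on the minus strand for Psmd5, chr14:55578244-55578493 on the plus strand for Psme1, chr11:30771525-30771774 on the plus strand for Psme4, chr7:29180674-29180923 on the minus strand for Psmd8, chr14:54617996-54618245 on the minus strand for Psmb5 and chr11:70525107-70525356 on the plus strand for Psmb6, each written 5′ to 3′ along the gene. Capitals mark a match to TGACNNNGC, the core of the antioxidant response element that Nfe2l1 and Nfe2l2 bind at many proteasome genes.
Psmb5: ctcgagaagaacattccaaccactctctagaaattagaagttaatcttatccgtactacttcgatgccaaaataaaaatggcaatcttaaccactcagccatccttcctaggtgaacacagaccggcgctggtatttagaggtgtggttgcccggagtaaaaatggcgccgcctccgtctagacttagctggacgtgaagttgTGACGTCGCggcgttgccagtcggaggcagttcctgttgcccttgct
Psmb6: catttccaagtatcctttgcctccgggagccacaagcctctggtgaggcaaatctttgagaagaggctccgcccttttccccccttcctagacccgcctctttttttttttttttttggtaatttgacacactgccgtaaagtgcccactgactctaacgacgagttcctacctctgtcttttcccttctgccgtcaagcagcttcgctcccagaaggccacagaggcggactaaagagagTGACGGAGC
Psmd5: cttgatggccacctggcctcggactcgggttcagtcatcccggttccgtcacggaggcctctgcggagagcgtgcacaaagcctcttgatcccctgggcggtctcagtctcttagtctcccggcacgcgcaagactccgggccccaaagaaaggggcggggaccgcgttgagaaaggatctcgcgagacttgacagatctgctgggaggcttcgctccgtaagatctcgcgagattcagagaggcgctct
Psme1: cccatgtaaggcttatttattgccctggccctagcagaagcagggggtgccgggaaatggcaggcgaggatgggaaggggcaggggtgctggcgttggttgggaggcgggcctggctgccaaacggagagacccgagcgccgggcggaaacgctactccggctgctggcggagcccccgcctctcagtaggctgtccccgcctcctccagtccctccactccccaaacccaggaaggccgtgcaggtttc
Psme4: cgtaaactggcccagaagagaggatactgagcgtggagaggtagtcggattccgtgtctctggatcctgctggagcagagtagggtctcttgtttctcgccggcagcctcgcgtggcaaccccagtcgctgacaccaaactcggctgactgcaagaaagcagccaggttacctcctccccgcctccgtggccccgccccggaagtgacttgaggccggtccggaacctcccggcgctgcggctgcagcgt
Psmd8: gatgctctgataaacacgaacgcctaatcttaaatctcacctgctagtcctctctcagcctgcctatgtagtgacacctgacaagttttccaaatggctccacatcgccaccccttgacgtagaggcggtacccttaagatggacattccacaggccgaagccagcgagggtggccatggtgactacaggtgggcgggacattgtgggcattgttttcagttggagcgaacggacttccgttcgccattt

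The match began 47 bases before the start in Psmb5 and 9 bases before it in Psmb6, on the gene's strand in both. Among windows not printed, those of Psmc6, Psmd9 and Psmd12 also held TGACNNNGC, and those of Psma7 and Psmd4 did not. The windows of Psmd5, Psme1, Psme4 and Psmd8 held no match on either strand to TGACNNNGC, to the CCAAT box, to a pair of GAAA repeats 2 bases apart (the interferon-stimulated element core) or to CACGTG (a palindromic E-box). TGACNNNGC was present in 5 of the 36 proteasome windows (13.9%) and in 10.2% of 32851 windows of all genes, CCAAT in 14 (38.9%) and 33.8%, the GAAA pair in 3 (8.33%) and 2.98%, and CACGTG in 4 (11.1%) and 6.02%. Both strands were searched, and a match is a description of letters, not a shown binding site.

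The ways in which the genes varied were unequal. In the TSA arm the range of a gene's 10 group means had a median of 0.57 on the log2 scale, against 0.98 for all probe sets tested, and 5 of 37 genes (13.5%) spanned more than 1, against 48.5% of all. In the Sir2 arm the medians over 4 group means were 0.34 and 0.48. With probe sets limited to those at least as bright as the median proteasome gene, the medians were 0.50 and 0.85 for the TSA arm and 0.27 and 0.43 for the Sir2 arm. Psme1 and Psmd5 spanned more than 1 in both arms. Psmd1, Psmd10 and Psme3 also did in the TSA arm, but their replicates there were far apart, as in Psmd1 at 24 h with TSA (1422 and 34.6).

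The genes did not follow a single profile. Pearson's r between a gene and the mean of the others, over the 10 group means of the TSA arm, had a median of 0.35 and ran from 0.91 for Psma5 to -0.62 for Psmc4. It was below 0 for 10 of 37 genes. Over the 4 group means of the Sir2 arm the median was 0.43, from 0.96 for Psma3 to -0.77 for Psmd4, and 8 of 36 genes were below 0. These values describe 10 and 4 points that share arrays. Of the 37 genes tested in at least 1 arm, 12 passed no test on their brightest probe set, namely the alpha subunits Psma2, Psma5 and Psma6, the beta subunits Psmb3 and Psmb4, the ATPases Psmc4 and Psmc5, the base scaffold Psmd1, the lid subunits Psmd3 and Psmd14, Psme3 and Psme3ip1. The share of all probe sets that passed no test was not computed. Psmd3 had group means within 0.25 of each other in the TSA arm, and Psmd14, the deubiquitinating enzyme of the lid, within 0.34.

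At each single time, a smaller share of proteasome genes than of all probe sets was called between TSA-treated and control cells, counting both directions. At 0 h, in growth medium, 2 of 37 genes (5.41%) were higher and none lower, against 17.9% of all probe sets called and 7.9% higher. At 4 h 2 (5.41%) were higher, against 11.4% called and 5.61% higher. No gene passed at 12 h (limma, 6 with an unadjusted p under 0.05), against 4.08% of all, and 1 (2.70%) was higher at 24 h, against 5.94% called and 2.67% higher. At 48 h 6 genes (16.2%) were higher and none lower, against 19.6% of all probe sets in either direction and 10.5% higher. At that time Myog read 18767 to 20797 with TSA and 18686 to 21516 without, and the skeletal actin gene Acta1 28617 to 34799.8 and 19919 to 20049.

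**Figure D2:**
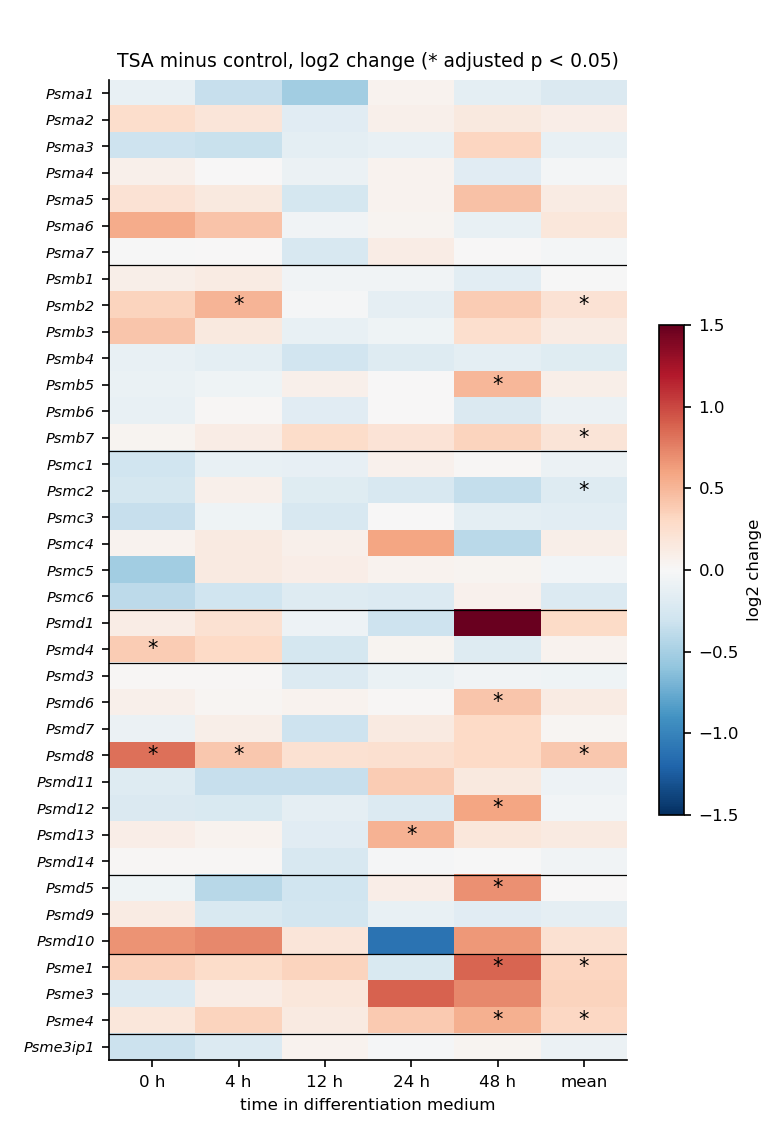
Log2 change of TSA against control (colour, red higher with TSA) for the 37 genes tested (rows, ordered by role) at each time and as the mean over times (columns), n = 2 arrays per group; asterisks mark an adjusted p under 0.05. Psmd8 is red in all columns, and 6 asterisks stand in the 48 h column.

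Psmd8, a subunit of the lid, showed the smallest adjusted p of the proteasome genes at 0 h. It read 3175 and 2867 in control and 5471 and 5449 in TSA cells, a 1.77-fold difference on the scale with the added constant (0.83 ± 0.11, adjusted p = 0.000165). At 4 h it read 3928 and 3599 against 5071 and 4939 (0.40 ± 0.11, adjusted p = 0.0282), at 12 h 3521 and 3754 against 4267 and 4317, at 24 h 3177 and 3648 against 4074 and 4022, and at 48 h 3869 and 4007 against 5102 and 4669.5. Both TSA arrays were above both control arrays at all 5 times, and the mean over times was 0.40 ± 0.05, adjusted p = 6.11e-05. The effect differed between times (F test, adjusted p = 0.0417). The 4 h call did not survive the removal of any 1 of its 4 arrays (adjusted p 0.0696 to 0.172), and the difference between times was lost with median centring (0.0698) and without each of 17 of the 20 arrays (adjusted p 0.0526 to 0.175).

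**Figure D3:**
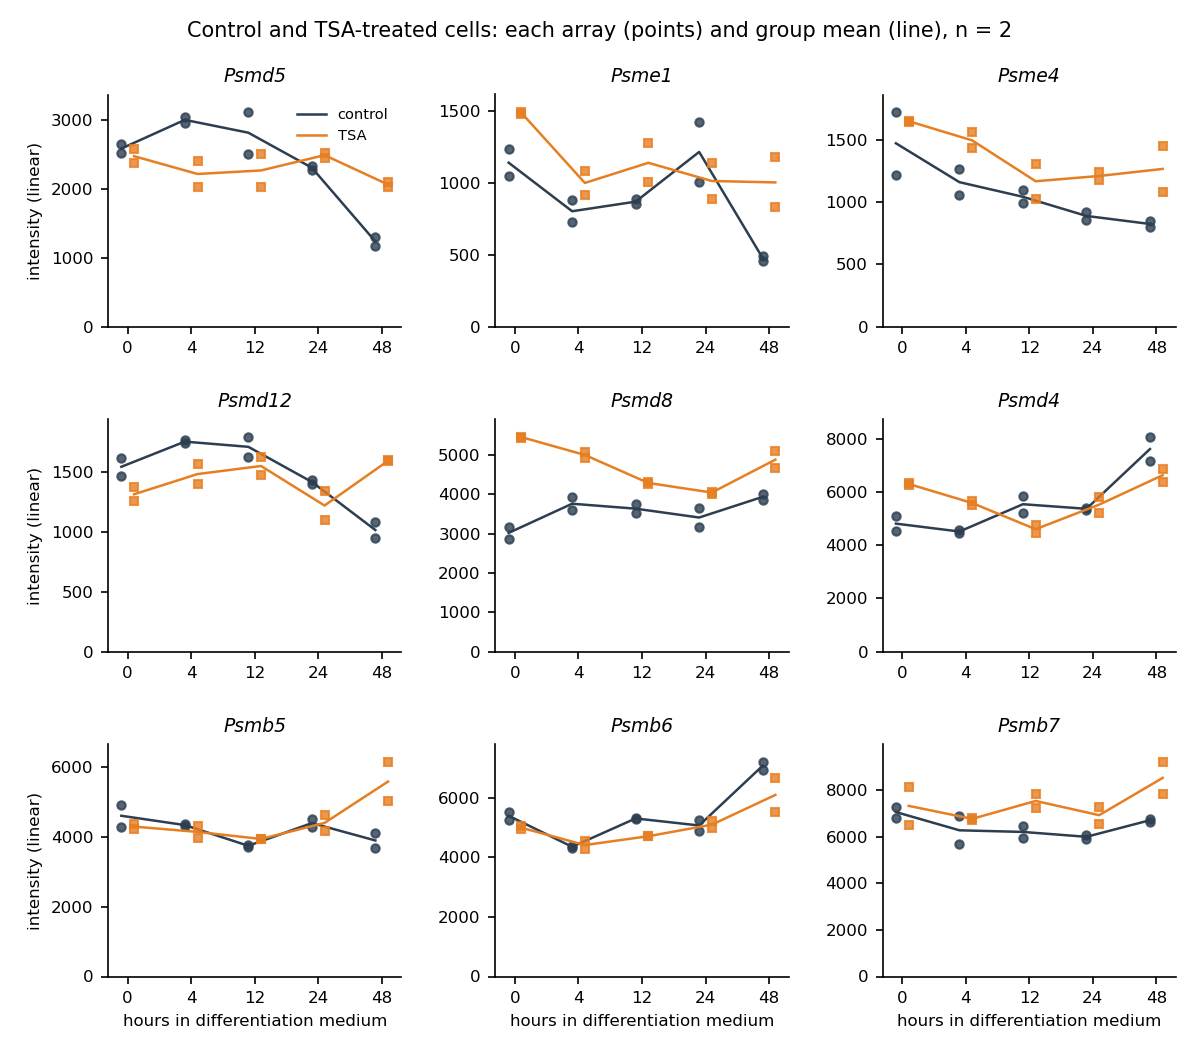
Intensity on each array (points) and group mean (lines) of 9 proteasome genes against hours in differentiation medium (evenly spaced steps), for control (dark) and TSA-treated (orange) cells, n = 2 arrays per group. Psmd8 is higher with TSA at each time, and Psmd5, Psme1, Psme4, Psmd12 and Psmb5 are higher with TSA on both arrays at 48 h.

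Psmd4 was higher with TSA at 0 h, 6353 and 6260.1 against 5091 and 4534 (0.38 ± 0.11, adjusted p = 0.0311), a call lost with quantile normalization (0.0567) and without any 1 of the 4 arrays (adjusted p 0.0532 to 0.221). At 12 h it read 4442 and 4765 with TSA and 5221 and 5865 without, and at 48 h 6880.0 and 6389 with TSA and 7153 and 8085 without, so that the TSA arrays were the lower ones at both times. The difference of its effect between times gave an adjusted p of 0.0264, lost with median centring (0.0565) and without each of 6 of the 20 arrays (adjusted p 0.053 to 0.0686). The dimmer probe sets of Psmc3 were lower with TSA at 0 h (-0.60 ± 0.16 and -0.40 ± 0.11, adjusted p = 0.0196 and 0.0274). The brightest one, at 6149.8 and 6056 with TSA and 7958 and 7605 without, did not pass (-0.34 ± 0.16, adjusted p = 0.189).

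At 4 h Psmb2, a non-catalytic beta subunit, was higher with TSA, 6795 and 7477 against 5029.8 and 4869 (0.51 ± 0.15, adjusted p = 0.0394). The groups were apart, and the call was lost with quantile normalization (0.0521) and without any 1 of the 4 arrays (adjusted p 0.0864 to 0.175). At 24 h the lid subunit Psmd13 was higher, 2932 and 3094 against 2124 and 1992 (0.52 ± 0.12, adjusted p = 0.0234), lost without any 1 of the 4 arrays (0.0716 to 0.144).

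The genes higher with TSA at 48 h are given beside their change from 0 to 48 h in control cells, which shares the control arrays of 48 h. All 6 calls were lost when only the 4 arrays of 48 h set the spread (adjusted p 0.154 to 0.266). Psmd5 read 1166 and 1303 in control and 2027 and 2090.3 in TSA cells (0.68 ± 0.13, adjusted p = 0.00365), beside a change of -0.99 over time. Psme1 read 459 and 494 in control and 828 and 1176 in TSA cells (0.88 ± 0.19, adjusted p = 0.00721), beside -1.05. Psmd12, a lid subunit, read 946 and 1085 in control and 1598 and 1590.3 in TSA cells (0.59 ± 0.12, adjusted p = 0.00468), beside -0.55. TSA and control arrays were apart for all 3, by 1.6-fold, 1.83-fold and 1.5-fold in that order on the scale with the added constant, which gives smaller folds than the intensities themselves. The Psme1 call was lost without TSA 48 h array 2 (adjusted p = 0.073) and with both its probe sets averaged (a difference of 0.15, adjusted p = 0.461).

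The other genes higher at 48 h were Psme4, Psmb5 and Psmd6. Psme4 read 798 and 851 in control and 1454 and 1079 in TSA cells (0.53 ± 0.17, adjusted p = 0.047), beside -0.73 over time. This call was lost with no filter (0.057) and without TSA 48 h array 1 (adjusted p = 0.278), control 48 h array 1 (adjusted p = 0.149) or control 48 h array 2 (adjusted p = 0.101). Psmb5 read 3674 and 4119.8 in control and 6157 and 5014 in TSA cells (0.50 ± 0.12, adjusted p = 0.0123), beside -0.23. It was lost without TSA 48 h array 1 (adjusted p = 0.0968) or control 48 h array 1 (adjusted p = 0.0735) and with its probe sets averaged (0.19, adjusted p = 0.363). The other, dimmer probe set of Psmb5 read 922 and 825 in control and 941 and 661 in TSA cells, with no difference past the threshold (-0.12 ± 0.19, adjusted p = 0.713). Psmd6 read 4141 and 3999.6 in control and 5524 and 5410.4 in TSA cells (0.41 ± 0.11, adjusted p = 0.0195), beside -0.32, and was lost without TSA 48 h array 1 (adjusted p = 0.0738), TSA 48 h array 2 (adjusted p = 0.0648) or control 48 h array 2 (adjusted p = 0.0783).

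For the catalytic subunits Psmb6 and Psmb7 no single time passed. Psmb6 with TSA read 5044 and 4931 at 0 h, 4553 and 4259 at 4 h, 4705 and 4700.4 at 12 h, 4974 and 5205 at 24 h and 5514 and 6659 at 48 h. Psmb7 with TSA read 6517 and 8141 at 0 h, 6815 and 6727 at 4 h, 7246 and 7832 at 12 h, 7287 and 6570.1 at 24 h and 7829 and 9230.3 at 48 h. Both Psmb7 arrays with TSA were above both control arrays at 12, 24 and 48 h, and the groups overlapped at 0 and 4 h. Psme3 with TSA read 226 and 766 at 24 h and 239 and 749 at 48 h, with 1 high array at each time.

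Averaged over the 5 times, 6 of 37 genes (16.2%) passed, against 22% of all probe sets. Higher with TSA were Psmd8, Psme1 (0.32 ± 0.09, adjusted p = 0.0173), Psme4 (0.31 ± 0.08, adjusted p = 0.0106), Psmb2 (0.21 ± 0.07, adjusted p = 0.0322) and Psmb7 (0.19 ± 0.06, adjusted p = 0.0386). Lower was the ATPase Psmc2 (-0.19 ± 0.06, adjusted p = 0.0335), which read 5193 and 4398 in control and 3652 and 3725 in TSA cells at 48 h. Leaving out 1 array ended the call of Psmb2 in 11, of Psmb7 in 15 and of Psmc2 in 11 of 20 cases. Quantile normalization also ended that of Psmb2 (0.0738), and averaging its probe sets that of Psme1 (0.10, adjusted p = 0.273). By role, 2 of 3 activators and 2 of 7 beta subunits were higher, 1 of 8 lid subunits was higher, 1 of 6 ATPases was lower, and no alpha subunit passed. The median change of the 37 genes was 0.00 and that of all probe sets was -0.03.

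The change from 0 to 48 h under TSA was also tested. In TSA cells 5 of 37 genes (13.5%) changed, against 26.4% of all. Psmc3 rose on all 3 probe sets, from 6149.8 and 6056 to 10991 and 9229 on the brightest (0.71 ± 0.16, adjusted p = 0.00643), lost without TSA 48 h array 1 (adjusted p = 0.0559), and by 1.50 ± 0.16 and 1.10 ± 0.11 on the others. The ATPase Psmc6 (0.57 ± 0.18, adjusted p = 0.0333) and Psmb5 (0.36 ± 0.12, adjusted p = 0.0438) rose, and the alpha subunits Psma7 (-0.58 ± 0.12, adjusted p = 0.00377) and Psma4 (-0.33 ± 0.11, adjusted p = 0.0348) fell. Quantile normalization ended the calls of Psmc6 (0.0597) and Psmb5 (0.052), median centring (0.0643) and averaging its probe sets (0.093) that of Psmb5, and leaving out 1 of the 4 arrays those of Psma4 in 4 cases (adjusted p 0.0616 to 0.2), of Psmc6 without TSA 0 h array 1 (adjusted p = 0.068), TSA 0 h array 2 (adjusted p = 0.179) or TSA 48 h array 2 (adjusted p = 0.263) and of Psmb5 without TSA 0 h array 1 (adjusted p = 0.175), TSA 0 h array 2 (adjusted p = 0.115) or TSA 48 h array 1 (adjusted p = 0.29). Psma7 went from 7206 and 6577 to 4854 and 4305, beside 7194 and 6690.2 to 4152 and 4994 in control cells.

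The test of the difference between the 2 time courses, the change from 0 to 48 h with TSA minus that without, passed for 6 genes (16.2%, against 20.3% of all). It was positive for Psmd12 (0.80 ± 0.17, adjusted p = 0.00544), Psmd5 (0.74 ± 0.19, adjusted p = 0.0149), the alpha subunit Psma3 (0.62 ± 0.17, adjusted p = 0.0233) and Psmb5 (0.59 ± 0.17, adjusted p = 0.0279). It was negative for Psmd4 (-0.58 ± 0.16, adjusted p = 0.0216) and Psmd8 (-0.53 ± 0.15, adjusted p = 0.0253). Psme1 and Psme4 did not pass it (0.52 ± 0.27 and 0.36 ± 0.24, adjusted p = 0.205 and 0.331). The dimmer probe set of Psmb5 did not show the same pattern. From 0 to 48 h it went from 574 and 687 to 922 and 825 in control cells. With TSA it went from 673 and 571 to 941 and 661. How far these 6 calls depend on single arrays is not reported here. An F test over all 5 times passed for 5 genes (13.5%, against 22.2% of all), namely Psmd5, Psmd12, Psmd4, Psmd11 and Psmd8.

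Between Sir2 and vector cells, the share of proteasome genes that passed was below that of all probe sets, and near it at 36 h. At 12 h none of 36 passed (limma, 5 with an unadjusted p under 0.05, smallest adjusted p = 0.0519 for Psmd10), against 5.55% of all probe sets. By probe set, 1 of the 43 tested passed at 12 h, and it was not the brightest of its gene. At 36 h 3 (8.33%) passed, against 9.26%, with Psme1 higher and Psma4 and Psmc3 lower. For the mean over both times 3 (8.33%) passed, against 12.6%, with Psme1 higher and Psmc3 and Psmd10 lower. The median change of the 36 genes was -0.05 at 12 h, -0.14 at 36 h and -0.09 for the mean, beside 0.02, -0.02 and -0.01 for all probe sets, and at 36 h 5 of 36 genes were above 0, against 47% of all probe sets. Myog read 2401 to 3077 in Sir2 and 3312 to 3644 in vector cells at 36 h, and its part in these differences was not tested.

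**Figure D4:**
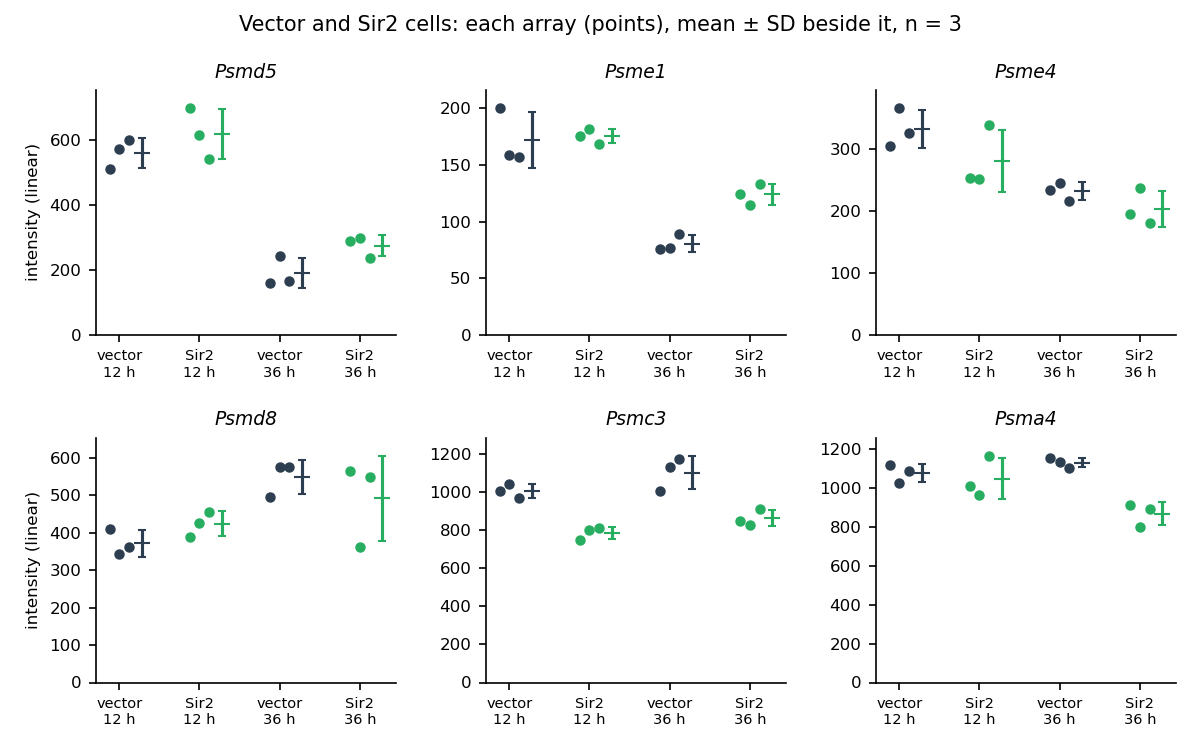
Intensity on each array (points) with mean ± SD beside it for 6 proteasome genes in vector (dark) and Sir2 (green) cells at 12 and 36 h, n = 3 arrays per group. At 36 h all Sir2 arrays are above all vector arrays for Psme1 and below them for Psmc3 and Psma4.

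Psme1 read 200.1, 158 and 157 in vector and 175, 182 and 169 in Sir2 cells at 12 h, with overlapping groups, and 76.0, 76.7 and 88.8 against 124, 114 and 133 at 36 h, with groups apart. The difference was 0.04 ± 0.12 at 12 h and 0.57 ± 0.12, adjusted p = 0.0102, at 36 h, and 0.25 (adjusted p = 0.373) at 36 h with its probe sets averaged. The test of the difference between the times did not pass (0.54 ± 0.17, adjusted p = 0.138), nor did any other gene (limma, 5 of 36 with an unadjusted p under 0.05, against 1.76% of all called). Its mean over both times, 0.30 ± 0.08, adjusted p = 0.0339, was lost with median centring (0.0559), no filter (0.073), its probe sets averaged (0.569) and without each of 8 of the 12 arrays (adjusted p 0.0671 to 0.0815).

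Psmd5 read 159, 245 and 167 in vector and 288, 298 and 238 in Sir2 cells at 36 h. The 2 groups overlapped by 1 array, and the difference did not pass (0.53 ± 0.17, adjusted p = 0.0704).

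Psmc3 was lower with Sir2 on all 3 of its probe sets. The brightest read 1005, 1040.0 and 965 in vector and 749, 799 and 809 in Sir2 cells at 12 h, and 1002, 1131 and 1169 against 848, 826 and 907 at 36 h, apart at both times. Its mean over times was -0.35 ± 0.07, adjusted p = 0.0064, and those of the others were -0.54 ± 0.07, adjusted p = 0.000501, and -0.46 ± 0.14, adjusted p = 0.0433. At 36 h alone the brightest one differed by -0.35 ± 0.10, adjusted p = 0.0475, lost with quantile normalization (0.0523), median centring (0.154), no filter (0.0971) and without Sir2 36 h array 1 (adjusted p = 0.126), Sir2 36 h array 2 (adjusted p = 0.127), Sir2 36 h array 3 (adjusted p = 0.0664), vector 36 h array 2 (adjusted p = 0.127) or vector 36 h array 3 (adjusted p = 0.157). At 12 h a dimmer probe set of Psmc3 read 780.5, 864 and 757 in vector and 567, 587 and 653 in Sir2 cells. Probe sets of 1 gene share their RNA and are not replicates.

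Psmd10, an assembly chaperone known as gankyrin, read 94.6, 93.6 and 84.8 in vector and 67.6, 60.2 and 74.4 in Sir2 cells at 12 h, and 87.3, 88.2 and 94.0 against 72.2, 74.6 and 82.1 at 36 h. The Sir2 arrays were the lower ones at both times, and the mean difference was -0.30 ± 0.07, adjusted p = 0.0199, lost without Sir2 12 h array 2 (adjusted p = 0.0506). Psma4 at 36 h read 1153, 1131 and 1102 in vector and 908, 798 and 891 in Sir2 cells (-0.38 ± 0.11, adjusted p = 0.0427), a call lost with median centring (0.132), no filter (0.0885) and without any 1 of the 6 arrays (adjusted p 0.0741 to 0.13). Of the lid, Psmd11 was lower on 1 of its probe sets (-0.27 ± 0.08, adjusted p = 0.0348) and not on the brightest (-0.14 ± 0.11, adjusted p = 0.493).

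The catalytic subunits showed no difference past the threshold between Sir2 and vector cells. Psmb5 at 36 h read 1001, 1058 and 1111 in vector and 915, 977 and 937 in Sir2 cells (-0.16 ± 0.14). Psmb6 read 608, 719.6 and 781 in vector and 699.8, 609 and 897 in Sir2 cells, with overlap (0.05 ± 0.17). Psmb7 read 698, 744 and 780.1 in vector and 597, 534 and 614 in Sir2 cells, with every Sir2 array below every vector array, but the adjusted p was 0.11 (-0.34 ± 0.12). Psme3 read 425, 407 and 399 in vector and 362, 371 and 322 in Sir2 cells (-0.22 ± 0.11), also apart and not past the threshold.

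Of the 3 genes of the alternative core, which replace the catalytic subunits in immune cells, 1 was tested. Psmb8 ran from 2.82 to 6.21 in vector cells and Psmb9 from 4.08 to 7.95, and neither passed the filter in either arm. Psmb10 was above it, at 855 and 728 at 0 h and 853 and 655 at 48 h in control cells, and passed no test in either arm. In other groups of the TSA arm its replicates were far apart. It read 1020 and -30.3 in control cells at 4 h and 410 and -93.9 with TSA at 0 h. The standard error of a TSA difference at a single time was 0.81, so changes could easily be missed. The probe sets of Psme2, the partner of Psme1 in the activator, are annotated to 2 genes (Psme2b and Psme2) and were left out of the counts. The brighter of them read 342, 251 and 175 at 12 h and 165, 163 and 191 at 36 h in vector cells.

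Related genes were read from lists by role. Of the transcription factors that act on proteasome genes, 8 were tested. From 0 to 48 h in control cells 2 rose and 1 fell, against 35.3% of all probe sets called, and with TSA at 48 h 1 was higher and 3 were lower, against 19.6%. Nfe2l1, the factor that restores proteasome genes when the proteasome is inhibited, went from 3571 and 3764 to 10961 and 11475 (1.58 ± 0.10, adjusted p = 1.39e-07), and in vector cells from 918, 917 and 976 to 1808, 1754 and 1627 (0.88 ± 0.11, adjusted p = 5.94e-05). Nfe2l2, the oxidative stress factor of the same family, rose by 0.33 ± 0.12 and 0.47 ± 0.10 in the same comparisons, and Nfyc, a subunit of the CCAAT-binding factor, fell by 0.75 ± 0.14 and 0.36 ± 0.11. With TSA at 48 h Nfe2l1 read 6764 and 7283, below both control arrays (-0.67 ± 0.10, adjusted p = 0.00064), Nfe2l2 and Mafg, a small Maf partner, were lower (-0.50 ± 0.12, and adjusted p = 0.0075 for Mafg), and Nfyc was higher (0.48 ± 0.14). None of the 8 passed between Sir2 and vector cells for the mean over times (limma, 3 with an unadjusted p under 0.05), against 12.6% of all.

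Of 12 assembly chaperones and proteasome-bound factors tested, 5 were lower and none higher with TSA in the mean over times, against 11.9% of all probe sets lower. The largest change was that of the core chaperone Psmg3 (-1.46 ± 0.38, adjusted p = 0.0148), followed by the adaptor Ecpas (-0.34 ± 0.08, adjusted p = 0.0118) and the core chaperone Psmg1 (-0.32 ± 0.06, adjusted p = 0.00206). From 0 to 48 h in control cells 2 of the 12 passed, against 35.3% of all. Uchl5, a deubiquitinating enzyme that binds the cap, fell (-1.41 ± 0.16, adjusted p = 2.19e-05) and Akirin2, which brings proteasomes into the nucleus, rose (0.64 ± 0.12, adjusted p = 0.00113). With Sir2 the maturation factor Pomp was lower in the mean over times (-0.40 ± 0.10, adjusted p = 0.0207), 1 of 12, against 12.6% of all.

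Of 19 ubiquitin-conjugating enzymes tested, 7 fell and 3 rose from 0 to 48 h in control cells, against 35.3% of all probe sets called, with the largest falls in Ube2t (-1.44 ± 0.17), Ube2d2a (-0.99 ± 0.16) and Ube2n (-0.89 ± 0.11), and 6 were higher and 1 lower with TSA in the mean over times, against 22%. Of 8 ubiquitin shuttles and segregase genes, 2 rose and 2 fell in control cells by 48 h (against 35.3% of all called), and with TSA at 48 h 2 were lower (against 19.6% called in either direction), the receptor Sqstm1 (-1.04 ± 0.14, adjusted p = 0.000307) and the shuttle Rad23b (-0.53 ± 0.14, adjusted p = 0.0195). Of the 10 subunits of the COP9 signalosome, a complex built like the lid, 1 rose and 2 fell in control cells by 48 h, against 35.3% of all called. With TSA in the mean over times 3 of the 10 passed, against 22%, with Cops9 (0.66 ± 0.08, adjusted p = 4.89e-05) and Cops5 (0.17 ± 0.06, adjusted p = 0.0425) higher and Cops6 (-0.22 ± 0.06, adjusted p = 0.0174) lower. Of 8 subunits of the cytosolic chaperonin, a folding complex shown for comparison, 2, Cct4 and Cct5, were lower and none higher with TSA in the mean over times, against 11.9% lower (-0.36 ± 0.06, adjusted p = 0.00088, and -0.39 ± 0.06, adjusted p = 0.000386). Of 4 muscle ubiquitin ligases on the array that were tested, 1 rose in control cells by 48 h, Traf6 (0.55 ± 0.16, adjusted p = 0.0172), against 35.3% of all called.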

How the data were processed

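RNA was measured on 32 arrays of 1 Affymetrix design, grouped by title and description. The authors deposited 1 intensity for each probe set on each array. Those of the Sir2 arm came from MAS5, per the submitters' processing notes, without a version. For TSA and control arrays no tool is named in those notes (not given in the sources used here), and their deposited intensities include values below 0. Of 12488 probe sets, 66 controls were left out, and 10833 of the rest mapped to 1 symbol, 396 to several and 1193 to none.

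Values below 0 were set to 0, and the arm's 40th (TSA) or 20th (Sir2) percentile was added before log2, which compresses changes of dim probe sets. Probe sets with a mean of at least 144.9 or 31.1 were tested with limma 3.58.1 in R 4.3.3, 1 mean per group (10 and 8 residual degrees of freedom), with Benjamini-Hochberg adjustment within a comparison. In simulated data with the real spread, 100 of 7453 probe sets were changed by each size, drawn from all brighter ones, not from proteasome genes. The TSA test at 48 h recovered 19% of log2 changes of 0.5 and 64% of changes of 1. The Sir2 test at 36 h recovered 28% and 78%, with 7 and 6 false calls of 7253. Fewer probe sets were changed there than were called in the data (19.6% and 9.26%). This makes the adjusted threshold stricter, so the recovered shares need not hold for proteasome genes. Members, lists and the rule for naming genes (catalytic subunits, activators, up to 4 largest changes per direction of a main comparison, smallest p where an effect differed between times) were chosen with earlier results of these data known. Alternatives were quantile normalization, median centring, other pseudocounts and filters, trended robust variances, the mean of a gene's probe sets, a term for arrays whose titles end in b, a replicate block, only the groups compared, and leaving out each array. The labels do not say that replicate numbers pair arrays. Deviations of same-numbered arrays correlated from -0.31 to 0.23 and, in the groups of 3, not above 0.1 for every pair, so the numbers were not used as a block. Figures were drawn with matplotlib 3.10.9 in Python 3.11.15.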

Additional observations from a re-analysis of the deposited data

Results flagged for a closer look

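The effect of TSA differed between times for 5 proteasome genes, by an F test of limma over all 5 times. They were Psmd5 (adjusted p = 0.00674), Psmd12 (0.0128), Psmd4 (0.0264), Psmd11 (0.0287) and Psmd8 (0.0417). Psmd5 and Psmd12 were not past the threshold at 0, 4, 12 and 24 h and were higher with TSA at 48 h. At 4 h the TSA arrays of both genes were the lower ones, without a call. Psmd5 then read 2024 and 2402 with TSA and 3040 and 2955 without, and Psmd12 1569 and 1397 with TSA and 1739 and 1769 without. A dimmer tested probe set of Psmd11 read 2167 and 2287 with TSA and 1621 and 1617 without at 48 h. At that time 7 probe sets of proteasome genes passed, beside 6 genes counted by their brightest. On its brightest probe set Psmd11 read 2419 and 2409 with TSA and 3022 and 3208 without at 4 h. At 24 h it read 2754 and 2961 with TSA and 2224 and 2097 without. The order of the groups was opposite, with no single time past the threshold on that probe set. Its call was lost without each of 10 of the 20 arrays (adjusted p 0.0504 to 0.0793) and with the mean of its probe sets (0.607), and that of Psmd12 without control 48 h array 1 (adjusted p = 0.0586).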

How the results depend on the processing

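No named change reversed under any alternative run. With only the groups compared, the counts fell at 0 h (2 to 1), 4 h (2 to 0), 24 h (1 to 0) and 48 h of TSA (6 to 0), for control 48 h (11 to 3, 0 higher and 3 lower) and TSA 48 h against 0 h (5 to 0) and for Sir2 at 36 h (3 to 1). Of the 3 called for control 48 h, only Psmd5 and Psme1 were among the 11. At 0 h of TSA the 2 became 1 with quantile normalization, 4 with double the pseudocount or the suffix covariate, 6 without a filter or with the mean of probe sets, and 5 with the 60th percentile filter or trended robust variances. The 5 genes whose TSA effect differed between times became 3 with median centring, 9 without a filter and 8 with trended robust variances. TSA 48 h against 0 h gave 3 with quantile normalization and 8 with the 60th percentile filter. Sir2 at 12 h went from 0 to 1 with quantile normalization or 0.5 times the pseudocount and to 2 with the 60th percentile filter, trended robust variances or the mean of probe sets; at 36 h the 3 became 1 with median centring, no filter or the replicate block and 5 with the 60th percentile filter or trended robust variances; and the Sir2 mean gave 7 with the latter. Apart from Sir2 at 36 h, the replicate block moved no count by over 1.5 times, and the pairing has no basis in the labels. With the mean of all probe sets of Psme1, which adds a dim one, its calls were lost (control 48 h against 0 h -0.19, TSA at 48 h 0.15, Sir2 at 36 h 0.25, vector -0.36). The causes were not tested.

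Leaving out 1 array, where a group left with 1 is assumed to vary like the others, gave 1 to 2 genes at 0 h of TSA, 0 to 0 at 4 h and 12 h, 0 to 1 at 24 h, 3 to 5 at 48 h (3 without TSA 48 h array 1), 3 to 7 for the mean (3 without control arrays 4 h 1, 12 h 1, 24 h 3 or 0 h 2, or TSA 4 h 2), 2 to 7 for the difference between times, 6 to 10 for control 48 h against 0 h (6 without control 0 h array 2, 7 without array 1), 9 to 12 across the control series, 2 to 4 for TSA 48 h against 0 h, 3 to 6 for vector (3 without vector 12 h array 2, 4 without 36 h array 2 or 3), 0 to 1 for Sir2 at 12 h, 1 to 2 at 36 h, 2 to 4 for the mean and 0 to 0 for its difference between times. Changes of about 0.5 were mostly missed in simulation, where fewer probe sets changed than were called in the data. Recovery of proteasome genes themselves was not simulated, and a gene that did not pass may still have changed.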
